A study of Mus musculus with 8 samples.

Results

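Langerhans cells and dendritic cells are the antigen-presenting cells of the skin, and 10 genes that mark them were followed here in whole skin of NcstnΔKC and normal mice. The genes were chosen by what they mark, and all 10 were found by symbol among the 34745 genes of the deposited table. They are Cd207, Epcam, Flt3, Xcr1, Clec9a, Zbtb46, Itgax, Batf3, Irf8 and Cd209d. At an adjusted p under 0.05, 5 of them were lower in NcstnΔKC skin (Cd207, Epcam, Flt3, Clec9a and Zbtb46) and 1 was higher (Cd209d). Itgax and Irf8 did not pass that threshold, and Xcr1 and Batf3 had too few counts to enter the fit. Over all 15684 genes tested, 22.7% were lower and 21.4% were higher, 44.1% in either direction, so a called gene was common in this comparison. The groups did not overlap in 6 of the 10, all lower, and in 41.6% of all tested genes (20.7% lower). Of the called genes, Clec9a entered the fit only through the normal group, where it is higher. Flt3 would not have entered through the NcstnΔKC libraries alone.

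RNA sequencing gave 8 skin libraries, 4 NcstnΔKC and 4 normal, from mice labelled male and aged 16 weeks. NcstnΔKC mice carried the genotype Ncstn flx/flx; Krt14 CreER+/-, in which a keratin promoter of basal keratinocytes drives a recombinase that tamoxifen activates, so that the floxed gene for nicastrin, a subunit of γ-secretase, can be removed in those cells and their descendants. From 8 weeks of age they were given tamoxifen by gavage, 20 mg per kg daily for 5 days and then once every 10 days. Normal mice received corn oil and, per the protocol, had that same floxed genotype, although their genotype label reads wildtype. Differences between the groups therefore cannot be told apart from those of tamoxifen and, if the label holds, of the transgenes. Ncstn had 66.8, 50.2, 57.8 and 56.2 CPM (counts divided by the library sizes that edgeR scaled) in NcstnΔKC replicates 1 to 4 and 60.7, 61.9, 61.3 and 58.4 CPM in the normal replicates. Its log2 fold change was -0.07 ± 0.12 (SE, adjusted p = 0.663, edgeR's quasi-likelihood test). The counts cover the gene as a whole and not its floxed exons apart, so the groups are named by their labels. The labels do not say how many animals went into a library, and p-values measure the spread between these libraries.

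The depth was 11881506 to 12893174 counts in the NcstnΔKC libraries and 5835422 to 8663753 in the normal libraries. Replicates 3 and 4 of both groups held 22304 to 37109 counts of Xist, a transcript of female cells, against 4 to 9 in the others, which goes against the male label. Results are therefore also given within each Xist class, 2 libraries against 2, where the class without Xist gave 3 higher and 1 lower genes in all and called none of the members. NcstnΔKC replicate 1 stood apart from the other 3 libraries of its group on the second principal component, which held 13.5% of the variance. Over all genes 3360 were higher and 3555 lower, with 5323 higher and 2224 lower when libraries were scaled by total counts, and 739 and 7661 when scaled by basal keratinocyte genes. Krt14, a defining keratin of skin, had 2038 to 3984 CPM in NcstnΔKC and 718 to 942 CPM in normal libraries. Skeletal muscle markers took 0.113% to 0.803% of counts in NcstnΔKC libraries and 0.768% to 5.95% in normal libraries, and hair follicle and sebaceous markers took 0.260% to 0.358% and 0.433% to 0.912% in the same order. Genes of the mitochondrial genome took 0.680% to 0.939% of counts in NcstnΔKC and 3.42% to 5.43% in normal libraries. Of the rRNA-linked loci, Gm42418 took 0.0786% to 1.08% and 7.53% to 8.70%, and Gm26917 3.01% to 6.37% and 0.583% to 1.06%, NcstnΔKC before normal. The ranges of the mitochondrial and rRNA-linked genes did not overlap between groups. With those genes removed before scaling, 5 members were lower and 1 was higher, as in the whole table.

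Langerhans cells live in the epidermis, hold on to keratinocytes through adhesion molecules such as EpCAM, and are named for langerin, the lectin encoded by Cd207. Conventional dendritic cells grow from precursors that need the cytokine FLT3 ligand. Their type 1 branch, known as cDC1, takes up dead cells and presents their antigens to CD8 T cells, and depends on the transcription factors BATF3 and IRF8. Langerin is also made by a share of dermal cDC1, so Cd207 alone does not separate these cells. In bulk tissue, fewer cells of a type and less RNA per cell cannot be told apart.

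RefSeq promoters of the mouse build GRCm38.p6, from 250 bases before to 50 after a transcript start, were matched for 10 of 10 genes and gave 11 windows, since Irf8 has 2. Of these, 3 are shown because they hold TGANTCA, the letters of an AP-1 or BATF site, set in capitals below. In Cd207 (chr6:83677808-83678107, minus strand) and Zbtb46 (chr2:181424339-181424638, minus strand) the capitals run on over GAAATGANTCA, which contains those letters and reads as a composite of an IRF and a BATF site, here on the opposite strand. Itgax lies at chr7:128129300-128129599, plus strand.
Cd207: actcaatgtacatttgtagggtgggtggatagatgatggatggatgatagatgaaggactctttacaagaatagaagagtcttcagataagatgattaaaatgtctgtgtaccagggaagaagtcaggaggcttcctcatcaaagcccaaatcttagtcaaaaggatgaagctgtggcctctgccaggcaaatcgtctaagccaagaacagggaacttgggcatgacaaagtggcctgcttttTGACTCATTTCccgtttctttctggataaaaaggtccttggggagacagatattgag
Zbtb46: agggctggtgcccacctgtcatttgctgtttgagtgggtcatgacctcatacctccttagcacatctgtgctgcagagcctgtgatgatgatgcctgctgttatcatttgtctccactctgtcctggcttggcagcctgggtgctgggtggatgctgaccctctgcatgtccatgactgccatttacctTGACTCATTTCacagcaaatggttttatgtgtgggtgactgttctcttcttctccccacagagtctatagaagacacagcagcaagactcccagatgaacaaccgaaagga
Itgax: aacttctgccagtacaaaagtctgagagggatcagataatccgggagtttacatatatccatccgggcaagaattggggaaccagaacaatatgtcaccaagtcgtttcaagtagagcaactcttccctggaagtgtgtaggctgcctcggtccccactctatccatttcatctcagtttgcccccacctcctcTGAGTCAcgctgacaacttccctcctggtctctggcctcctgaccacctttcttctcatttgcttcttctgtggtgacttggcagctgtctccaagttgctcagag
On either strand TGANTCA was in 3 of 11 member windows and in 7.808% of all 32851 promoters of that length. GAAATGANTCA was in 2 of 11 and in 0.1248%, or 41 promoters. The first base of TGANTCA lay 7 bases before the start in Cd207, 61 in Zbtb46 and 56 in Itgax. The Zbtb46 start used by RefSeq lies inside the gene as the deposited table bounds it. The motifs were searched after these letters had been read, and a match is not a bound site.

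Cd207 is the defining gene of Langerhans cells (ENSMUSG00000034783, mm10, chromosome 6, 83671215 to 83677857, minus strand). The gene had 3.36, 1.23, 0.968 and 0.873 CPM in NcstnΔKC replicates 1 to 4, against 8.50, 3.63, 12.99 and 16.0 CPM in normal replicates 1 to 4. Every NcstnΔKC library lay below every normal library, by little between NcstnΔKC replicate 1 and normal replicate 2. The means were 1.61 ± 1.18 CPM in NcstnΔKC skin and 10.3 ± 5.41 CPM in normal skin (SD, n = 4 each). The log2 fold change was -2.70 ± 0.56 (SE, adjusted p = 0.0052, edgeR's quasi-likelihood test with Benjamini-Hochberg adjustment over all genes), with a 95% interval of -3.98 to -1.43. It was -3.32 without NcstnΔKC replicate 1. In the libraries with Xist it was -3.93 and within those without Xist -1.42 (adjusted p = 0.000241 and 0.283). The difference between those classes was -2.53 (unadjusted p = 0.0162, adjusted p = 0.827 over all genes), which did not pass.

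Epcam encodes the adhesion protein that Langerhans cells share with follicle epithelium (ENSMUSG00000045394, chromosome 17, 87635979 to 87651106). It had 60.3, 49.3, 48.9 and 53.3 CPM in NcstnΔKC replicates 1 to 4 and 97.9, 91.3, 106 and 79.5 CPM in normal replicates 1 to 4. The groups did not overlap and the spread within each was small, 53.0 ± 5.28 CPM in NcstnΔKC skin and 93.8 ± 11.4 CPM in normal skin (SD, n = 4 each). Epcam fell, with a log2 fold change of -0.82 ± 0.13 (adjusted p = 0.00154, edgeR). Within libraries with Xist it was -0.82, and within those without -0.79. Of the 10 tested markers of hair follicle and sebaceous epithelium 7 were lower and 1 higher, with 2255 to 3568 CPM in sum in NcstnΔKC libraries and 5100 to 9349 CPM in normal libraries, and Shh, the defining gene of growing follicles, had 2 counts in NcstnΔKC and 16 in normal libraries. Their part in the fall of Epcam was not tested.

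The receptor for FLT3 ligand, Flt3 (ENSMUSG00000042817, chromosome 5, 147330741 to 147400489), had 1.01, 0.820, 1.04 and 1.75 CPM in NcstnΔKC replicates 1 to 4. Normal replicates 1 to 4 had 5.47, 3.02, 5.36 and 5.99 CPM. No NcstnΔKC library reached the lowest normal one. Flt3 fell, with a log2 fold change of -2.10 ± 0.34 (adjusted p = 0.00159, edgeR), -1.98 within the libraries with Xist and -2.21 within those without. The NcstnΔKC libraries alone would not have taken Flt3 through the filter. Its ligand Flt3l moved the same way, at 4.53, 3.89, 5.88 and 4.97 CPM in NcstnΔKC replicates and 12.8, 7.46, 6.78 and 13.9 CPM in normal replicates, and the groups did not overlap. Flt3l fell by 1.09 ± 0.28 on the log2 scale (adjusted p = 0.0135, edgeR), but did not pass with scaling by total counts (-0.79, adjusted p = 0.0661).

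Zbtb46, a transcription factor of conventional dendritic cells that endothelium also expresses (ENSMUSG00000027583, chromosome 2, 181387762 to 181459426), had 4.20, 3.21, 5.12 and 3.49 CPM in NcstnΔKC replicates and 6.07, 9.48, 6.78 and 9.90 CPM in normal replicates. The groups did not overlap. Zbtb46 fell, with a log2 fold change of -1.01 ± 0.25 (adjusted p = 0.0116, edgeR), -0.92 within libraries with Xist and -1.06 within those without. The call ended with scaling by total counts (-0.69, adjusted p = 0.0515). It also ended with the deposited FPKM, which divide counts by gene length and depth (-0.23 on the log2 scale of FPKM with 1 added, adjusted p = 0.07). The mean FPKM of Zbtb46, 0.419 in NcstnΔKC and 0.671 in normal skin, lay below the 1 added, which makes that change smaller. The call ended with 0.1 added to FPKM as well. Of 8 endothelial markers 1 was higher and 2 were lower, and their summed level was 272 to 425 CPM in NcstnΔKC libraries and 321 to 399 CPM in normal libraries.

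Clec9a, the receptor by which cDC1 sense dead cells, had 2, 9, 6 and 7 counts in NcstnΔKC replicates 1 to 4 and 21, 6, 11 and 18 in normal replicates (ENSMUSG00000046080, chromosome 6, 129408862 to 129424763). In CPM these were 0.168, 0.615, 0.415 and 0.470 in NcstnΔKC and 3.19, 1.21, 1.55 and 2.35 in normal replicates, and the groups did not overlap. The log2 fold change was -2.27 ± 0.44 (adjusted p = 0.00381, edgeR), and Clec9a passed the filter only through the normal group, where it is higher. Within libraries with Xist it was -2.08, and within those without the counts were too few to be fitted.

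Xcr1, the chemokine receptor that marks cDC1, had 4, 5, 11 and 10 counts in NcstnΔKC replicates and 8, 4, 14 and 17 in normal replicates (ENSMUSG00000060509, chromosome 9, 123852315 to 123862029). Scaled, that was 0.336, 0.342, 0.760 and 0.672 CPM in NcstnΔKC and 1.21, 0.806, 1.98 and 2.21 CPM in normal replicates. The groups did not overlap, with 0.760 against 0.806 CPM in the closest pair. On log2 CPM the exact two-sided permutation p was 0.0286, the smallest of 70 arrangements. Fitted with no filter on low counts, the log2 fold change was -1.42 ± 0.49 (adjusted p = 0.0499, edgeR). Over the 11 alternatives that fitted Xcr1 it ran from -1.77 to -1.28. The adjusted p-values of those fits ran from 0.0161 to 0.0731, so the call did not hold in all.

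Batf3, the transcription factor on which cDC1 depend, had 6, 7, 16 and 7 counts in NcstnΔKC replicates and 5, 6, 4 and 9 in normal replicates (ENSMUSG00000026630, chromosome 1, 191097847 to 191108945). In CPM the groups overlapped, with 0.470 to 1.11 in NcstnΔKC and 0.565 to 1.21 in normal libraries, and the exact permutation p was 0.171. Its partner Irf8, which macrophages and B cells also express, had 6.38, 9.63, 13.7 and 17.8 CPM in NcstnΔKC replicates and 10.9, 14.5, 10.2 and 18.8 CPM in normal replicates (ENSMUSG00000041515, chromosome 8, 120736358 to 120756694). Those groups overlapped over most of their range. The log2 fold change of Irf8 was -0.19 ± 0.33 (adjusted p = 0.662, edgeR), with a 95% interval of -0.94 to 0.56, and it turned to 0.14 with scaling by total counts. With scaling by basal keratinocyte genes it was -0.91 and passed (adjusted p = 0.0419).

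Itgax encodes CD11c, the integrin chain common to dendritic cells and some macrophages (ENSMUSG00000030789, chromosome 7, 128129547 to 128150657). It had 5.37, 7.52, 10.1 and 11.8 CPM in NcstnΔKC replicates and 12.0, 8.87, 13.6 and 20.6 CPM in normal replicates. The groups overlapped, since NcstnΔKC replicates 3 and 4 exceeded normal replicate 2. The log2 fold change was -0.67 ± 0.32 (adjusted p = 0.116, edgeR), with a 95% interval of -1.38 to 0.05. It passed with Xist as a covariate (-0.67, adjusted p = 0.036) and with scaling by basal keratinocyte genes (-1.35, adjusted p = 0.00395). Of its transcript sequence 10.7% is shared with Itgad, counted in stretches of 31 bases, so its counts are uncertain to that extent.

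**Figure D1:**
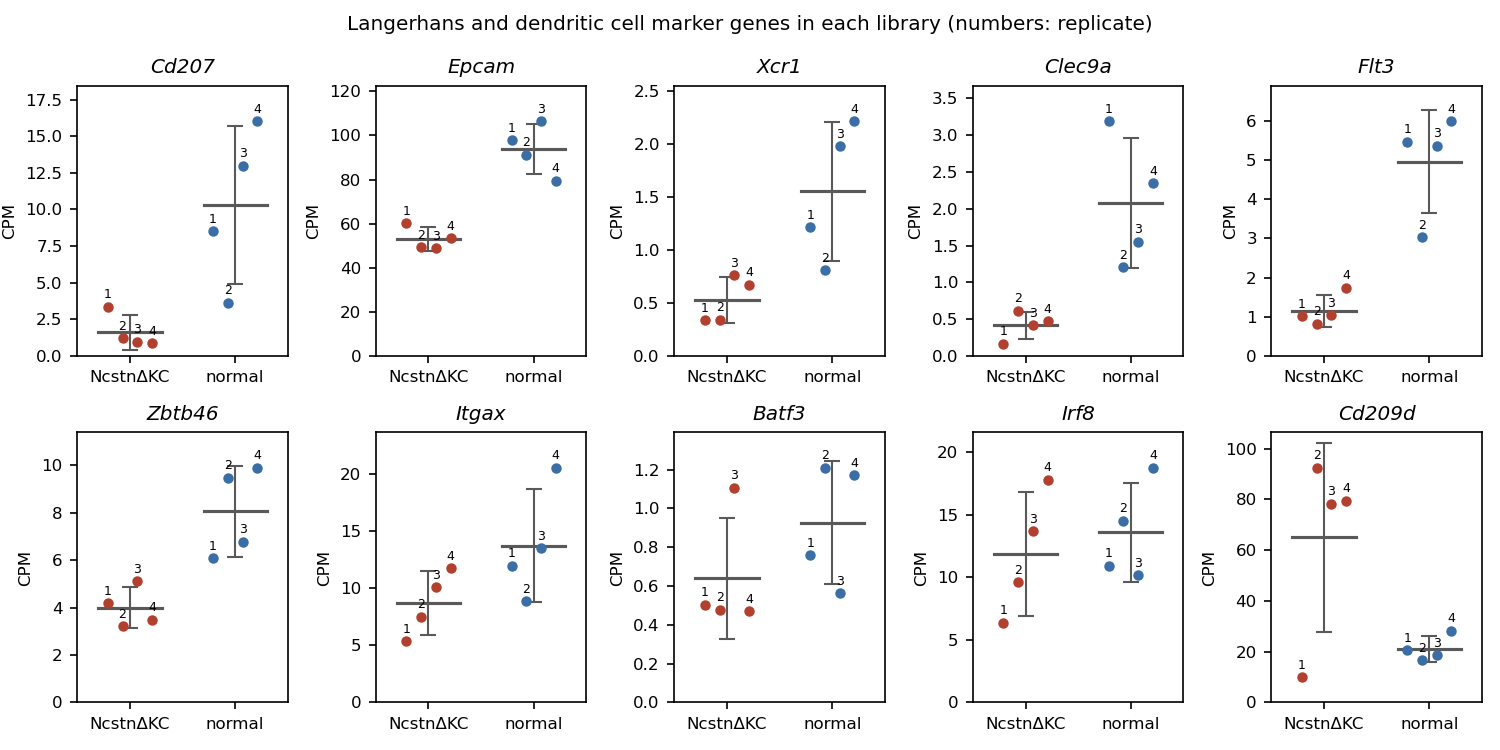
CPM of the 10 marker genes in each library, NcstnΔKC left and normal right, each panel on its own axis from 0. Points are libraries numbered by replicate, with the mean and SD of 4. Cd207, Epcam, Xcr1, Clec9a, Flt3 and Zbtb46 do not overlap between groups, and Cd209d has 1 NcstnΔKC library at 9.99 CPM and 3 between 78.3 and 92.5.

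**Figure D2:**
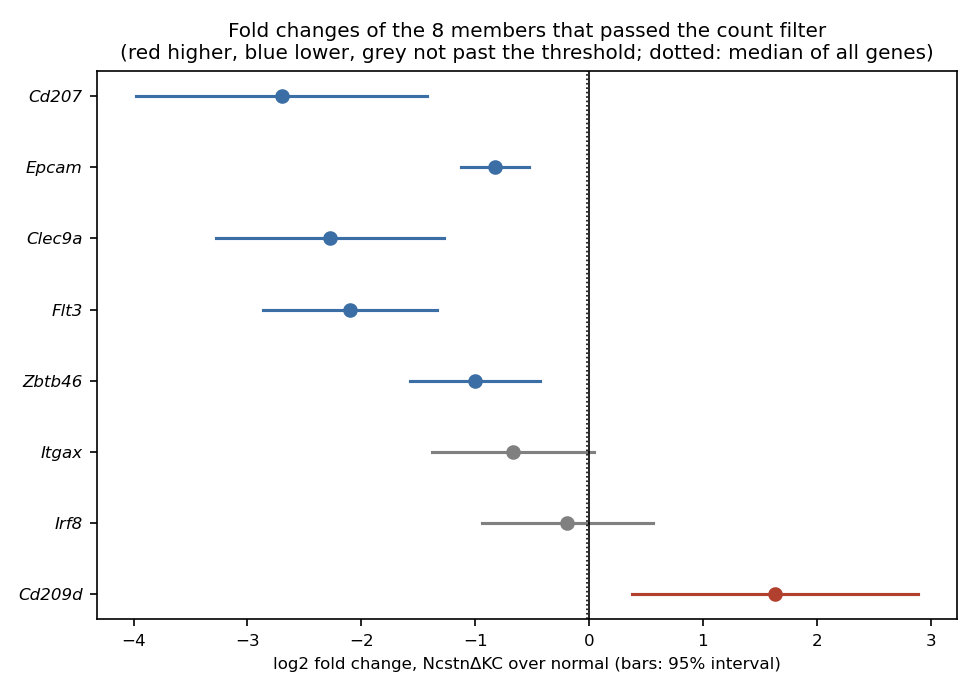
Log2 fold changes, NcstnΔKC over normal, of the 8 genes that entered the fit, with 95% intervals. Blue is lower, red higher and grey not past the threshold; the dotted line is the median of all tested genes, -0.02.

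Cd209d encodes a C-type lectin of the DC-SIGN family (ENSMUSG00000031495, chromosome 8, 3871827 to 3878555), and was the one gene of the 10 that was called higher. It had 9.99, 92.5, 78.3 and 79.6 CPM in NcstnΔKC replicates 1 to 4, against 20.5, 16.5, 18.5 and 28.3 CPM in normal replicates 1 to 4. Replicate 1 lay below every normal library, whereas the other 3 NcstnΔKC libraries lay above all of them. The log2 fold change was 1.63 ± 0.56 (adjusted p = 0.0398, edgeR), whereas the exact permutation p was 0.143. It was 1.79 (adjusted p = 0.0013) within libraries with Xist and 1.47 within those without. The call ended when any library other than NcstnΔKC replicate 1 was left out (adjusted p = 0.0547 to 0.0922), with scaling by basal keratinocyte genes (0.89), with limma-voom (1.26), with no filter (1.78), with FPKM (1.55 and 1.58) and with the replicate number as a block (1.34, adjusted p = 0.127). Without NcstnΔKC replicate 1 it was 1.99 (adjusted p = 0.000182).

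The other 6 mouse CD209 genes lie in the same cluster on chromosome 8 (3743395 to 4137707), and all 7 had their lowest NcstnΔKC value in replicate 1. Cd209e had 13.8, 213, 198 and 203 CPM in NcstnΔKC replicates and 18.2, 7.46, 17.2 and 19.4 CPM in normal replicates, and rose, with a log2 fold change of 3.32 ± 0.73 (adjusted p = 0.00652, edgeR). In Cd209a to Cd209e, 5 genes, NcstnΔKC replicates 2 to 4 exceeded every normal library. Cd209a (0.43 ± 0.60), Cd209b (0.16 ± 0.54) and Cd209c (0.44 ± 0.63) did not pass the threshold and turned below 0 with scaling by basal keratinocyte genes, but passed without NcstnΔKC replicate 1 (0.81, 0.52 and 0.82). Cd209f and Cd209g were at -0.96 and -1.43 on the log2 scale and did not pass, although Cd209g did without NcstnΔKC replicate 1 (-1.05, adjusted p = 0.0341). Cd209f shares 36.3% of its sequence with Cd209g and Cd209c shares 24.7% with other genes, so the counts of these 3 are uncertain.

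**Figure D3:**
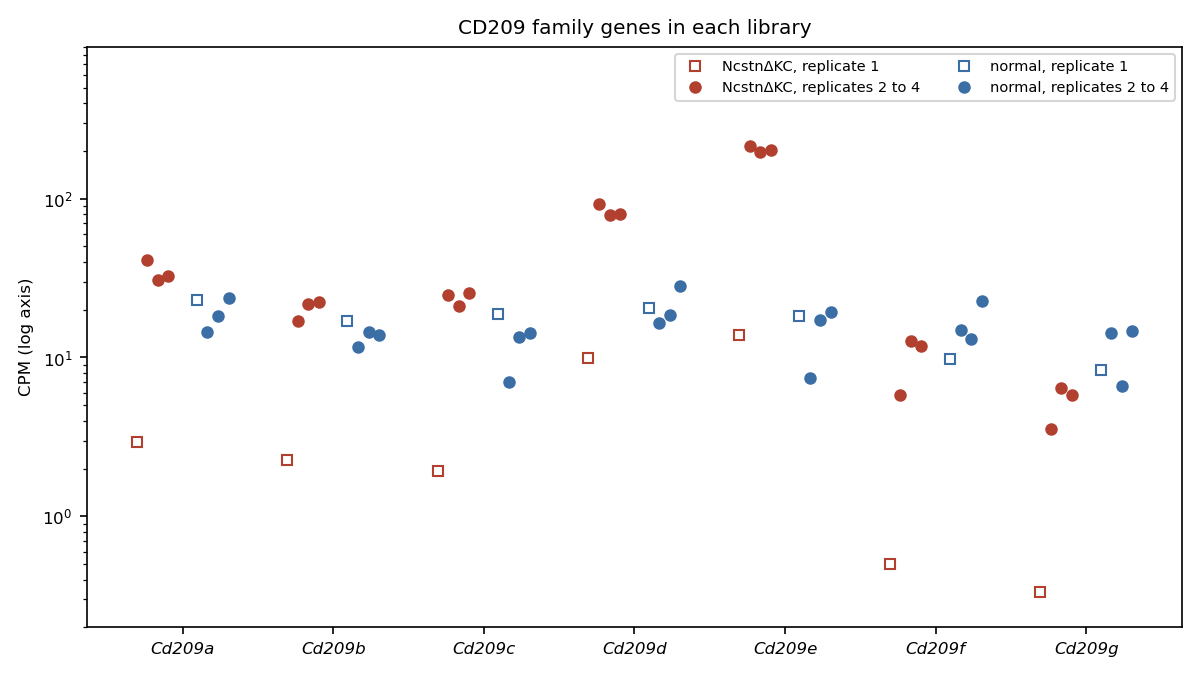
CD209 family genes in each library in CPM on a log axis, NcstnΔKC red and left, normal blue and right of each pair, replicate 1 as an open square. NcstnΔKC replicate 1 is the lowest of its group for all 7 genes, and replicates 2 to 4 lie near 200 CPM for Cd209e, between 198 and 213.

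Macrophage markers moved with this pattern. Of 12 such markers 6 were higher and 1 lower, and their summed level was 578 CPM in NcstnΔKC replicate 1 and 2938 to 3796 CPM in replicates 2 to 4, against 630 to 1052 CPM in normal libraries. None of the 12 was at 0 in any library. Mast cell and monocyte markers had the same low library, at 95.9 and 145 CPM in NcstnΔKC replicate 1. Their part in the rise of Cd209d was not tested.

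Of 14 other Langerhans cell genes 7 were higher, 1 was lower and 6 did not pass, with a median log2 fold change of 0.77, against -0.02 over all genes, and 2 were higher and 3 lower, with a median of 0.11, when scaled by basal keratinocyte genes. The aryl hydrocarbon receptor Ahr, which is abundant in keratinocytes too, had 378, 362, 355 and 364 CPM in NcstnΔKC replicates and 157, 87.1, 126 and 151 CPM in normal replicates, and rose by 1.48 ± 0.18 (adjusted p = 0.000472, edgeR). Tgfbr2, a receptor for the TGF-β that Langerhans cells need, rose by 0.86 ± 0.13, but was at 0.15 (adjusted p = 0.522) scaled by basal keratinocyte genes. Cd24a, a surface protein also made by epithelium, rose by 1.57 ± 0.26 on the log2 scale. Hepacam2 fell by 1.76 ± 0.37 on the log2 scale (adjusted p = 0.00533, edgeR). Basal keratinocyte genes summed to 13484 to 17479 CPM in NcstnΔKC and 8294 to 11615 CPM in normal libraries, and their part in these rises was not tested.

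Among 13 other cDC1 genes 4 were higher and 3 lower, with a median of -0.26 on the log2 scale, which turned to 0.03 with scaling by total counts. Scaled by basal keratinocyte genes 1 was higher and 7 were lower, with a median of -0.91. Tlr11, a Toll-like receptor of mouse cDC1, had 0, 0.342, 0.415 and 0.470 CPM in NcstnΔKC replicates and 4.25, 3.43, 3.81 and 5.21 CPM in normal replicates. It fell by 3.68 ± 0.54 on the log2 scale (adjusted p = 0.00101, edgeR), having passed the filter only through the normal group, where it is higher. Ifi205, an interferon-inducible gene, had 13.2 to 23.2 CPM in NcstnΔKC and 59.7 to 115 CPM in normal libraries, and fell by 2.04 ± 0.26. Cadm1, an adhesion molecule of cDC1 and of epithelium, rose by 0.67 ± 0.16, but was at -0.0058 scaled by basal keratinocyte genes. Cd8a, which T cells also express, was among the higher ones, and 4 of 9 tested T and NK cell markers, Cd8a included, were higher too.

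Of 11 tested cDC2 genes 2 passed the threshold, both higher, with a median log2 fold change of 0.56 that turned to -0.19 with basal keratinocyte scaling. Without NcstnΔKC replicate 1 there were 6 higher and 2 lower. Clec10a, a lectin of cDC2 and macrophages, had 50.01, 220, 250 and 277 CPM in NcstnΔKC replicates and 26.1, 51.0, 27.7 and 49.2 CPM in normal replicates, so that replicate 1 alone overlapped the normal group. It rose by 2.37 ± 0.49 (adjusted p = 0.00516, edgeR). Il1b rose by 3.39 ± 0.82 (4.20 without normal replicate 1, 2.78 without NcstnΔKC replicate 4). All 8 tested neutrophil markers were higher, against 21.4% of all tested genes. The neutrophil list summed to 96.8 to 407 CPM in NcstnΔKC and 3.19 to 14.2 CPM in normal libraries. Ly6g had 0 counts in the normal libraries. Most of the 8 passed the filter only through the NcstnΔKC group, where they are higher, so their count is in part set by the filter. Among them Stfa2l1 had 643 counts in NcstnΔKC and 2 in normal libraries. The part of neutrophil markers in the rise of Il1b was not tested. Zeb2 was at -0.70 ± 0.26 and missed the threshold, which it passed without NcstnΔKC replicate 1 (-0.47, adjusted p = 0.0264).

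Of 6 tested plasmacytoid dendritic cell genes 2 passed, both lower, and 4 of 7 were lower without NcstnΔKC replicate 1. Their median log2 fold change was -0.32, and 0.01 with total counts. Cox6a2, which is a gene of skeletal muscle as well, fell by 4.40 ± 0.69 on the log2 scale. Siglech, a defining gene of these cells, had 25 counts in NcstnΔKC and 45 in normal libraries and was below the filter. Fitted with no filter it was lower, at -1.78 ± 0.45 on the log2 scale (adjusted p = 0.0134, edgeR). Without NcstnΔKC replicate 1 it passed the filter and was lower as well (-1.96, adjusted p = 0.0076). Spib, Pacsin1 and Cd300c were also below the filter. Fitted without it they were at 0.10, -0.46 and -0.76 and did not pass (adjusted p = 0.935, 0.707 and 0.685, edgeR). All 10 skeletal muscle markers were lower, with 977 to 8007 CPM in sum in NcstnΔKC and 7878 to 72763 CPM in normal libraries, and their part in the fall of Cox6a2 was not tested. Tcf4, a transcription factor of many tissues, fell by 0.59 ± 0.10, but not past the threshold with total counts (-0.28, adjusted p = 0.124). Ly6d, also an epidermal gene, was at -0.82 ± 0.34 and missed the threshold, which it passed without NcstnΔKC replicate 1 (-1.19, adjusted p = 0.00805).

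Of 12 tested genes of mature, migrating dendritic cells 4 passed, all higher, and 1 gene was lower without NcstnΔKC replicate 1 or without normal replicate 3. Their median was 0.23 on the log2 scale. With basal keratinocyte scaling 3 were higher and 3 lower, with a median of -0.45. Cd80, a costimulatory ligand of T cells, had 3.52, 3.48, 5.12 and 6.58 CPM in NcstnΔKC replicates and 0.911, 1.01, 1.13 and 1.30 CPM in normal replicates. It rose by 2.08 ± 0.32 (adjusted p = 0.00126, edgeR), but the normal libraries alone would not have taken Cd80 through the filter. Relb, an NF-κB subunit needed for dendritic cell maturation, rose by 1.25 ± 0.19. Fscn1, which bundles actin in mature dendritic cells and other cells, rose by 2.28 ± 0.44, and by 3.02 without normal replicate 2. Ccr7, the receptor that leads these cells to lymph nodes, had 80 counts in NcstnΔKC and 12 in normal libraries and was below the filter. It did not pass when fitted with no filter (1.86 ± 0.76 on the log2 scale, adjusted p = 0.0893, edgeR) or in the libraries with Xist (0.75, adjusted p = 0.226).

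Among 16 tested ligands and receptors that feed, recruit or place these cells, 4 were higher and 5 lower, with a median of -0.16 that turned to 0.16 with total counts. Scaled by basal keratinocyte genes 3 were higher and 9 lower, with a median of -0.85. Il34, the cytokine that maintains Langerhans cells, had 12.2, 9.09, 9.68 and 9.07 CPM in NcstnΔKC replicates and 19.1, 13.5, 18.4 and 30.2 CPM in normal replicates. Those groups did not overlap, and Il34 fell by 1.03 ± 0.25 on the log2 scale (adjusted p = 0.0103, edgeR). Tgfb3 fell by 1.39 ± 0.23, Tgfb2 by 0.81 ± 0.18 and the chemokine Cxcl14 by 1.03 ± 0.26. Csf2rb, the shared receptor chain for GM-CSF, rose by 1.60 ± 0.29, Ccl2 by 2.76 ± 0.56, Ccl20 by 2.35 ± 0.61 and Tgfb1 by 0.91 ± 0.20. For Ccl2 and Ccl20, the normal libraries alone would not have been enough to pass the filter. The call of Ccl20 ended in the libraries with Xist (0.63, adjusted p = 0.16), with limma-voom (2.08, adjusted p = 0.0635) and with the replicate block (2.07, adjusted p = 0.0644), and that of Tgfb1 with scaling by basal keratinocyte genes (0.21, adjusted p = 0.402). Flt3l and Il34 belong to this list, and were picked out for their roles after the list's values had been seen.

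Of 14 transcription factors of dendritic cell development 3 were higher and 2 lower, with a median of 0.16. Scaled by basal keratinocyte genes 1 was higher and 6 were lower, with a median of -0.47, and by total counts 5 were higher. Without NcstnΔKC replicate 1 there were 4 higher and 5 lower, without normal replicate 1 or 2 there was 1 higher, and without normal replicate 4 there was 1 lower. Cbfa2t3, a corepressor of dendritic cell and blood development, fell by 0.69 ± 0.17, but not past the threshold without normal replicate 4 (-0.54, adjusted p = 0.0548) or with total counts (-0.38, adjusted p = 0.154).

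Of 15 other tested CD209 genes and myeloid C-type lectins 5 were higher and 1 lower, and 12 and 2 without NcstnΔKC replicate 1. Without NcstnΔKC replicate 2, normal replicate 2 or normal replicate 4 the lower one, Clec12a, did not pass. Their median was 0.45 on the log2 scale, and -0.26 scaled by basal keratinocyte genes. Clec4d, a lectin of neutrophils and monocytes, had 314 counts in NcstnΔKC libraries and 3 in normal libraries, 2 of them in replicate 2, a ratio of 49.2 after scaling (95% counting interval 16.7 to 240.1). Clec4e, which encodes Mincle, had 4.87, 5.06, 14.8 and 27.5 CPM in NcstnΔKC replicates and 0.152, 0.202, 0.424 and 0.130 CPM in normal replicates. Its log2 fold change was 5.77 ± 0.82 (adjusted p = 0.000911, edgeR), and 5.11 without NcstnΔKC replicate 4. Both passed the filter only through the NcstnΔKC group, where they are higher. Clec4n, which encodes dectin-2, rose by 2.65 ± 0.56 (log2, adjusted p = 0.00527, edgeR).

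Of 10 tested genes of antigen presentation by MHC class II 6 were lower and 1, the protease gene Ctss, was higher, with a median of -0.94 on the log2 scale. With total counts 3 were lower, without normal replicate 4 also 3, and with basal keratinocyte scaling 8. Cd74, the invariant chain, had 144, 375, 238 and 266 CPM in NcstnΔKC replicates and 795, 480, 684 and 968 CPM in normal replicates. The groups did not overlap and Cd74 fell by 1.52 ± 0.31 on the log2 scale (adjusted p = 0.00454, edgeR). H2-Aa, a class II α chain, fell by 1.01 ± 0.21, but not past the threshold with FPKM (-0.64, adjusted p = 0.0609). H2-Ob, a modulator of peptide loading in B cells and dendritic cells, had 0.138 to 0.671 CPM in NcstnΔKC and 1.81 to 3.26 CPM in normal libraries, and fell by 2.65 ± 0.44. It too passed the filter only through the normal group. Of 7 B cell markers 6 were below the filter. Ms4a1 had 3 counts in NcstnΔKC and 19 in normal libraries, and Fcmr had 2 counts in NcstnΔKC and 18 in normal libraries, both lower when fitted with no filter (adjusted p = 0.0278 and 0.0261, edgeR). In the libraries with Xist all 4 B cell markers that could be fitted were lower, with a median of -2.16. Blk, the one that passed the filter, had 18.9 CPM in NcstnΔKC replicate 1, 0.968 to 2.08 CPM in the other NcstnΔKC libraries and 1.61 to 5.60 CPM in normal libraries, and was lower without that replicate (-1.37, adjusted p = 0.0446). The part of B cells in the fall of class II genes was not tested.

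**Figure D4:**
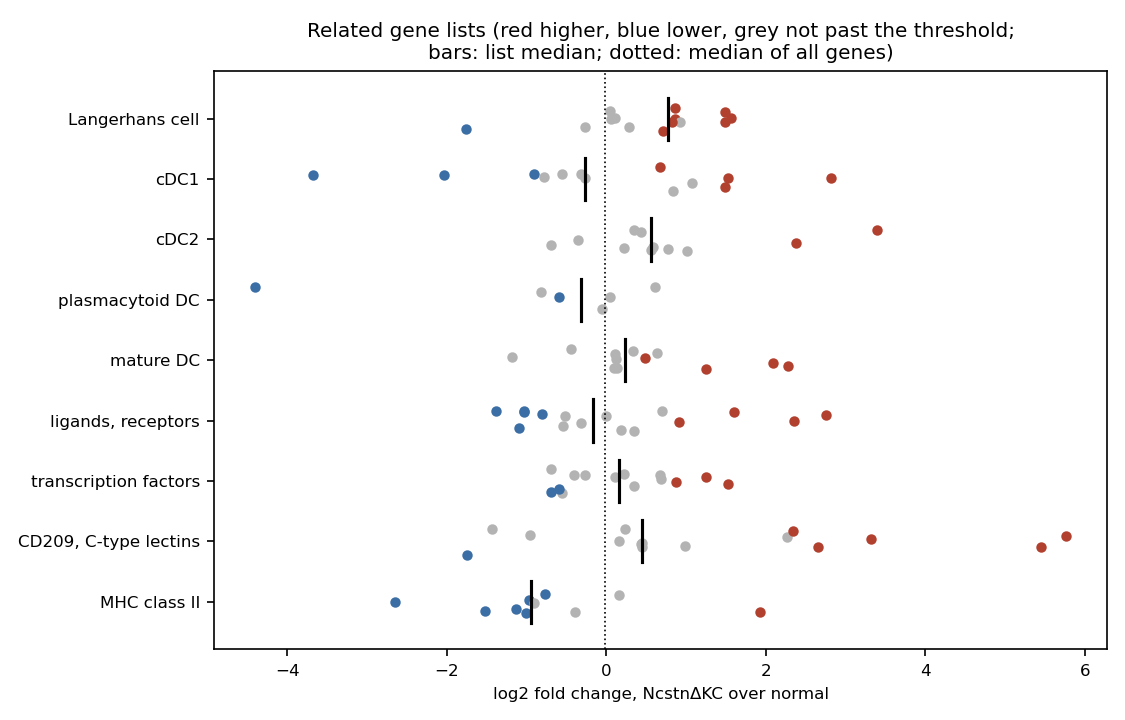
Log2 fold changes, NcstnΔKC over normal, of the tested genes of 9 related lists. Each point is a gene, red higher, blue lower and grey not past the threshold, with the list median as a bar and the median of all genes, -0.02, as a dotted line. The Langerhans cell median is 0.77 and the MHC class II median -0.94.

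On the FPKM scale, which divides by gene length and so allows genes to be set side by side, the order of the levels differed between groups. In NcstnΔKC skin Cd209d led with 81.6 ± 47.9 FPKM, followed by Epcam with 28.8 ± 1.30, Itgax with 1.85 ± 0.669, Irf8 with 1.55 ± 0.698 and Cd207 with 1.13 ± 0.728 (SD, n = 4). Its other 5 genes lay between 0.117 and 0.419 FPKM. In normal skin Epcam led with 40.8 ± 4.99 FPKM, then Cd209d with 20.5 ± 5.86, Cd207 with 6.01 ± 3.17, Itgax with 2.31 ± 0.888 and Irf8 with 1.40 ± 0.430, and the other 5 lay between 0.258 and 0.719. Neighbours whose libraries did not overlap in this order were Epcam over Itgax and Cd207 over Zbtb46 in NcstnΔKC skin, and Epcam over Cd209d, Cd209d over Cd207 and Irf8 over Flt3 in normal skin. All other neighbours overlapped.

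Ratios between members within a library do not depend on the scaling. Of 9 ratios, 0 passed after adjustment (exact permutation test over 70 arrangements, lowest adjusted p = 0.103), and 0 of 9 had an unadjusted p under 0.05. The lowest unadjusted p was 0.0571, for 5 ratios. Irf8 to Cd207 was higher by 2.43 on the log2 scale in NcstnΔKC skin (means 2.98 against 0.55 in normal skin, n = 4 each), and Itgax to Cd207 by 2.03. Flt3 to Zbtb46 was lower by 1.09 on that scale, at -1.80 ± 0.56 in NcstnΔKC and -0.70 ± 0.65 in normal skin.

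The genes whose profile over the 8 libraries lay nearest to that of Cd207, by root mean square distance of centred log2 CPM among genes of at least 5 CPM, were Ldhb (0.379), Krt10 (0.388), Ctgf (0.399) and Kif21a (0.427). Krt10, a keratin of suprabasal epidermis, had 1667, 1161, 537 and 541 CPM in NcstnΔKC replicates and 5395, 2660, 6213 and 4997 CPM in normal replicates. As in Cd207, NcstnΔKC replicate 1 was the highest of its group and normal replicate 2 the lowest of its own. Krt10 was picked for its nearness to Cd207 over these same libraries, so that likeness is no separate result. Nearest to Epcam were Zfp384, Gnl2, Tab2 and Ncor1, at distances of 0.0846 to 0.0908. Nearest to Itgax were Cd7 (0.0933), Sp100 (0.111), Trim34a (0.156) and Txnl4b (0.163). The libraries share group, depth and composition in all these profiles.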

How the data were processed

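Gene-level counts and FPKM of 8 skin RNA-seq libraries were used as the authors deposited them. The submitters' processing notes name TopHat2 2.0.9, TopHat, HTSeq, mm10 and hg38 without their roles. Annotation release and strandedness are not given in the sources used here. The report gives the depth, and 0 per-sample columns were left unused. The deposited FPKM were checked against counts over depth. In 9175 genes with at least 50 counts in every library the largest spread of FPKM over count share was 0.00177%.

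The deposited counts were filtered (filterByExpr), scaled by TMM and tested with edgeR 4.0.16 (quasi-likelihood, robust, two-sided, R 4.3.3), with Benjamini-Hochberg adjustment over 15684 genes. CPM are counts divided by library size, scaled by edgeR. Single values were tested by exact two-sided permutation over 70 arrangements, on log2 of CPM with 0.5 added. The method was tested on simulated data in which few genes changed. Shifts in composition as large as those seen here were not covered by that test. Alternatives (26) included other scalings, DESeq2 1.42.0, limma 3.58.1 with voom, log2 FPKM with 1 or 0.1 added, no filter, a replicate block, Xist classes and leaving out libraries. Sex, going by Xist and chromosome Y counts, did not match the label in 4 libraries.

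The members, lists and tests were chosen with earlier results of these data known. Genes named are all members, the 3 of lowest p in each list, and the 4 nearest profiles to Cd207, Epcam and Itgax; others named were chosen after their values were seen. Where a symbol had several rows (Itgam, Ccl21a), the row with most counts was used. Counting intervals and floors cover counting error only.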

Additional observations from a re-analysis of the deposited data

Results flagged for a closer look

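In 47 of the genes named in this report each group of 4 libraries was checked for a library far from the rest. That made 94 groups, where chance gives about 1 in 20. Other genes named here, Cd209e and Blk among them, were not checked. There were 4 such values, no more than that rate gives. Cd207 had 3.36 CPM in NcstnΔKC replicate 1, while the other 3 NcstnΔKC libraries had 0.873 to 1.23 CPM. Batf3 had 1.11 CPM in NcstnΔKC replicate 3, against 0.470 to 0.503 CPM in the others of that group, on 6 to 16 counts. Fscn1 had 27.4 CPM in normal replicate 2, against 7.44 to 8.08 CPM in the other normal libraries. H2-Aa had 54.5 CPM in NcstnΔKC replicate 1, against 76.5 to 79.4 CPM in the others of its group.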

How the results depend on the processing

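All 26 alternatives that gave a value kept the direction of Cd207, Epcam, Flt3, Clec9a and Zbtb46, and their calls held in all but the libraries without Xist alone and, for Zbtb46, total counts and FPKM. The median log2 fold change of all genes, -0.02, moved to 0.29 with total counts, -0.70 with basal keratinocyte scaling, and 0.20 and 0.28 with FPKM plus 1 and plus 0.1. All-gene calls, 3360 higher and 3555 lower, became 5323 and 2224 with total counts, 739 and 7661 with basal keratinocyte scaling, 5351 and 2115 with FPKM plus 1, 5315 and 2122 with FPKM plus 0.1, and 3 and 1 in the libraries without Xist. The cause was not tested, beyond there being fewer libraries in the last. Members called higher, 1, became 0 with basal keratinocyte scaling, limma-voom, no filter, either FPKM setting, the replicate block and the libraries without Xist, and ranged from 0 to 1 when a library was left out. Members called lower, 5, became 4 with total counts, either FPKM setting and thinning, 7 with basal keratinocyte scaling, 6 with no filter, with Xist alone and with Xist as a covariate, 5 or 6 when a library was left out, and 0 in the libraries without Xist. In the 8 related lists without MHC class II, 26 of 90 tested genes were higher and 13 lower. With total counts 8 were lower, with basal keratinocyte scaling 16 were higher and 30 lower, with FPKM 7 and 6 were lower, with Xist alone 45 were higher, and without Xist 0 and 0. Leaving out 1 library gave 23 to 40 higher and 10 to 20 lower. Cadm1 reversed to -0.0058 with basal keratinocyte scaling.

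The replicate numbers share no label that pairs animals, and deviations of same-numbered libraries correlated at -0.03, -0.04, -0.03 and 0.22. With them as a replicate block 2923 genes were higher and 3058 lower. Genes of few counts (Clec9a, Xcr1 and Batf3) are limited by depth, which was lower in the normal libraries. Clec9a could not be fitted after thinning to the smallest library.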
